A study of Drosophila melanogaster with 6 samples.

Results

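The 10 genes described here mark the glia of the fly central nervous system (CNS) or carry out their functions: *repo*, *gcm*, *alrm*, *Eaat1*, *Gs2*, *wrapper*, *nrv2*, *moody*, *loco* and *Gli*. They were taken by gene name from a table of 13416 genes, as a list drawn up with earlier results of these data known, and all 10 passed the minimum mean of 10 normalized counts that left 9668 genes for testing. RNA had been extracted from whole CNS of third-instar *Drosophila melanogaster* larvae, with 40 to 45 larvae collected per sample, and sequenced in bulk. The control group carried the label w1118, and the sources used here do not settle whether these larvae were plain w1118 or of the Cas9 strain named below, so the genetic background of the groups may differ. The Alk-YS group was homozygous for an edit of the receptor tyrosine kinase gene *Alk* that exchanges a tyrosine in the kinase domain for a serine. This allele had been made by Cas9 cutting and homology-directed repair in embryos of the strain y1, {Mvas-Cas9}ZH-2A, w1118. Each group held 3 biological replicates, and neither was treated.

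Glia are the non-neuronal cells of the nervous system. In the fly CNS the transcription factors Gcm and then Repo set and maintain glial fate. Astrocyte-like glia take up and recycle transmitters in the neuropil, cortex and ensheathing glia wrap cell bodies and neuropil, and surface glia seal the brain from the hemolymph through septate junctions. *Alk* is the receptor for the ligand Jeb, which glia of the larval CNS are known to supply to neighbouring neural progenitors during starvation. In single cells of third-instar larval brains the authors found *Alk* and *jeb* transcripts mainly in mature neurons and very little of either in glia. The comparison made here asked whether glial transcripts differed between the genotypes.

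None of the 10 glial genes differed between Alk-YS and control past the adjusted threshold of 0.05, which 2.97% of all tested genes passed in limma. The 5 genes with a positive log2 fold change (Alk-YS minus control) were *alrm*, *Gli*, *loco*, *nrv2* and *Eaat1*, and the 5 with a negative one were *Gs2*, *moody*, *repo*, *gcm* and *wrapper*. DESeq2 on recovered reads called none of them, with 6.36% of its genes called, and edgeR called none, with 2.70% called. At an unadjusted p under 0.05 limma counted 1 member, *moody*, against 13.8% of all genes. *moody* was also the 1 member whose library values did not overlap between the groups, where 19.5% of all genes did not overlap. The transcripts came from whole tissue, so fewer cells of a type and less RNA per cell cannot be told apart in any value given here.

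**Figure D1:**
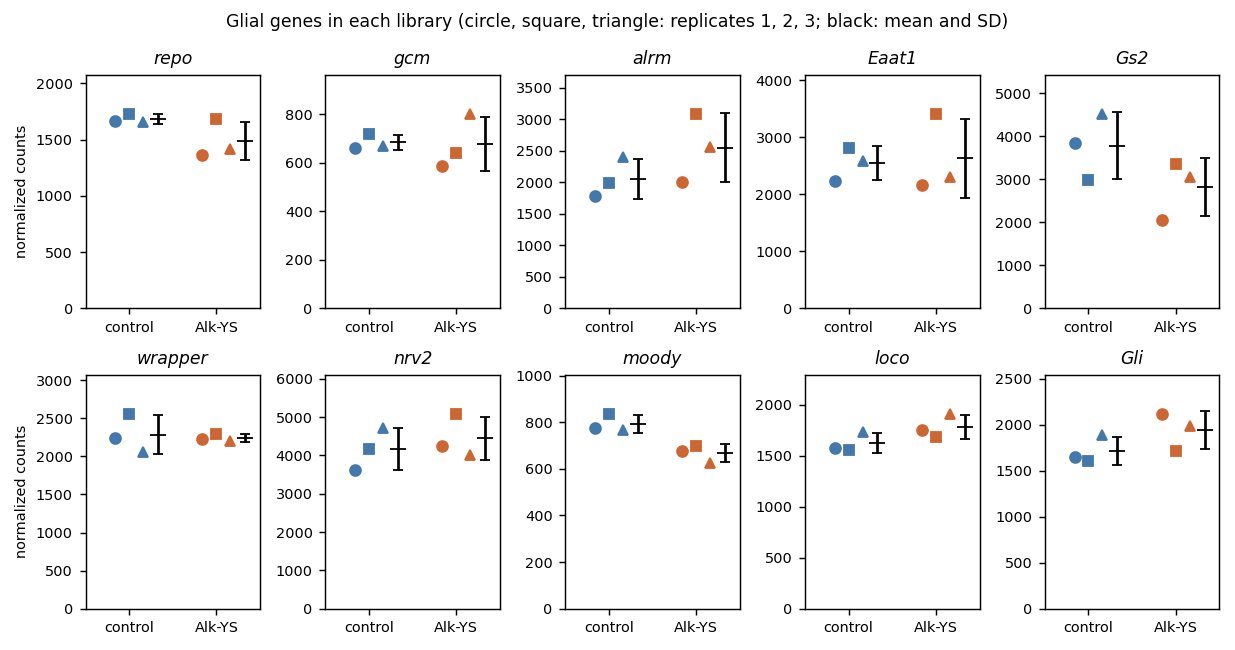
Normalized counts (vertical axis, from 0) of the 10 glial genes, 1 panel per gene, in each of the 3 control and 3 Alk-YS libraries, with 1 point per library and the mean and SD of each group in black. The groups overlap for every gene but *moody*, whose Alk-YS libraries lie between 624.1 and 698.2 and whose control libraries lie between 767.8 and 836.1.

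The depth behind these values was 18770029 to 22333967 reads assigned to genes per library. Every member had between 602 and 4781 reads in every library, so all the labelled glial markers were detected, and counting error alone gave a coefficient of variation of at most 4.08%. The share of reads on mitochondrial genes was 8.56% to 13.8%. *Alk*, the edited gene, had a log2 fold change of 0.05 and a limma adjusted p of 0.921, and its read count does not check the genotype, since the edit is a base exchange.

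Of the 2 fate regulators, *repo* encodes the homeodomain protein found in nearly all fly glia outside the midline, and lies on chromosome 3R from 18236192 to 18239602, on the plus strand, in the BDGP6 assembly. Its control libraries held 1662.7, 1731.2 and 1651.7 normalized counts and its Alk-YS libraries 1360.0, 1678.4 and 1420.3. Alk-YS replicates 1 and 3 fell below all control values, while replicate 2 lay among them. Its log2 fold change was -0.18 with a standard error of 0.10, and the 95% interval ran from -0.42 to 0.05. limma gave *repo* an adjusted p of 0.516 (unadjusted 0.108), and an exact two-sided permutation over the libraries gave 0.3.

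*gcm*, the glial cells missing gene on 2L from 9579498 to 9581745 (minus strand), encodes the zinc-binding transcription factor that switches embryonic precursors to glia and that also acts in larval lamina glia and neurons. Control libraries gave 663.5, 721.1 and 671.3 normalized counts and Alk-YS libraries 586.4, 642.7 and 803.6 for *gcm*. Alk-YS replicate 3 was the highest and replicate 1 the lowest of the 6, so the Alk-YS libraries spanned the control libraries on both sides. For *gcm* the log2 fold change came to -0.03 (95% interval -0.34 to 0.28) and the limma adjusted p to 0.965. The related gene *gcm2*, 26.8 kb away, had an FPKM lower than that of *gcm*, and the ratio of *gcm* to *gcm2* was 3.04 ± 0.089 in control and 3.49 ± 0.72 in Alk-YS (SD, n = 3 each), with overlapping libraries.

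The 3 astrocyte-like genes held the largest estimate of either sign among the members and, in Alk-YS, the highest coefficients of variation. *alrm* (astrocytic leucine-rich repeat molecule, 3R:25381065-25382781, minus strand) encodes the leucine-rich repeat protein whose promoter is the usual driver for astrocyte-like glia. It held 1778.2, 1985.2 and 2396.8 normalized counts in control and 2001.8, 3094.1 and 2561.6 in Alk-YS. Alk-YS replicates 2 and 3 exceeded every control library, and replicate 1 did not. The estimate for *alrm* was a log2 fold change of 0.30, with a standard error of 0.17, a 95% interval from -0.10 to 0.70 and a limma adjusted p of 0.542.

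*Gs2*, a glutamine synthetase that turns glutamate into glutamine in glia (X:11422832-11430197, plus strand), had the largest absolute log2 fold change among the members. Its control libraries held 3832.7, 2976.3 and 4527.8 normalized counts and its Alk-YS libraries 2052.5, 3353.5 and 3060.1. Control replicate 2 lay below Alk-YS replicates 2 and 3, so the groups overlapped. That fold change of *Gs2* was -0.43 on the log2 scale with a standard error of 0.21, the 95% interval ran from -0.92 to 0.06, and the limma adjusted p was 0.445. The ratio of *Gs2* to *Gs1*, the mitochondrial glutamine synthetase, in FPKM was 1.39 ± 0.69 in control and 1.03 ± 0.23 in Alk-YS (SD, n = 3 each), again with overlap.

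*Eaat1*, the glial transporter that clears glutamate (2L:9333567-9341925, plus strand), gave 2230.5, 2821.3 and 2594.6 normalized counts in control and 2159.4, 3418.6 and 2314.2 in Alk-YS. Alk-YS replicate 2 was the highest library and Alk-YS replicate 1 the lowest, a coefficient of variation of 26.1% against 11.7% in control. *Eaat1* thus had a log2 fold change of 0.02, within a 95% interval from -0.39 to 0.44, and a limma adjusted p of 0.980. Its FPKM relative to *Eaat2*, which encodes a related transporter, was 1.84 ± 0.54 in control and 1.88 ± 0.46 in Alk-YS (SD, n = 3 each).

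Among genes of cortex, ensheathing and wrapping glia, *wrapper* (2R:22379637-22382675, plus strand) encodes an immunoglobulin-domain adhesion protein that midline and cortex glia use to hold neurons. *wrapper* gave 2238.2, 2557.2 and 2057.2 normalized counts in control and 2226.7, 2295.5 and 2201.6 in Alk-YS. The 3 Alk-YS libraries all fell inside the control range, with a coefficient of variation of 2.17% against 11.1%. Its estimate was -0.02 on the log2 scale, with a 95% interval from -0.25 to 0.21 and a limma adjusted p of 0.963. *wrapper* lies 5.74 Mb from *Alk* on the same chromosome arm.

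*nrv2*, a beta subunit of the sodium-potassium pump that is widely used to label glia (2L:6789770-6798862, minus strand), gave 3608.2, 4179.4 and 4705.9 normalized counts in control. Its Alk-YS libraries gave 4242.3, 5086.3 and 4000.5, of which 1 lay above the control range. limma put *nrv2* at 0.09 on the log2 scale (95% interval -0.20 to 0.39), where the adjusted p was 0.847. Its neighbour *nrv1*, another pump beta subunit 2.91 kb away, stood below it in FPKM, and the ratio of *nrv2* to *nrv1* was 1.60 ± 0.18 in control and 1.70 ± 0.46 in Alk-YS (SD, n = 3 each).

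The 3 genes of blood-brain barrier glia had estimates of both signs. *moody* (X:2044292-2050120, minus strand) encodes the G protein-coupled receptor of surface glia that is required to seal the barrier. It held 773.6, 836.1 and 767.8 normalized counts in control and 676.8, 698.2 and 624.1 in Alk-YS. Every Alk-YS library lay below every control library, by a group mean of 666.4 ± 38.1 against 792.5 ± 37.9 (SD, n = 3 each). On the log2 scale *moody* differed by -0.25 with a standard error of 0.10 (95% interval -0.48 to -0.02), a fold of 0.841. The unadjusted limma p was 0.034 and the adjusted p 0.292, and an exact two-sided permutation gave 0.1, the smallest that 3 against 3 libraries can give. DESeq2 and edgeR gave *moody* adjusted p-values of 0.271 and 0.256.

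*loco* (3R:22619968-22639387, minus strand) encodes a regulator of G protein signalling that acts with *moody* in the same glia. *loco* gave 1574.7, 1558.1 and 1733.3 normalized counts in control and 1752.8, 1681.6 and 1911.4 in Alk-YS. Alk-YS replicates 1 and 3 exceeded all control libraries and replicate 2 fell short of control replicate 3. *loco* had a log2 fold change of 0.14 (95% interval -0.08 to 0.35) and a limma adjusted p of 0.619.

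*Gli* encodes gliotactin, a transmembrane protein of tricellular junctions (2L:15756002-15762758, minus strand). *Gli* gave 1653.9, 1603.2 and 1890.8 normalized counts in control and 2118.8, 1716.8 and 1984.9 in Alk-YS, where replicate 2 lay below control replicate 3 and the other two lay above every control library. In limma the log2 fold change of *Gli* was 0.18 (95% interval -0.08 to 0.43) and the adjusted p was 0.587. The fold intervals of all 10 genes lay between 0.527 and 1.63.

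**Figure D2:**
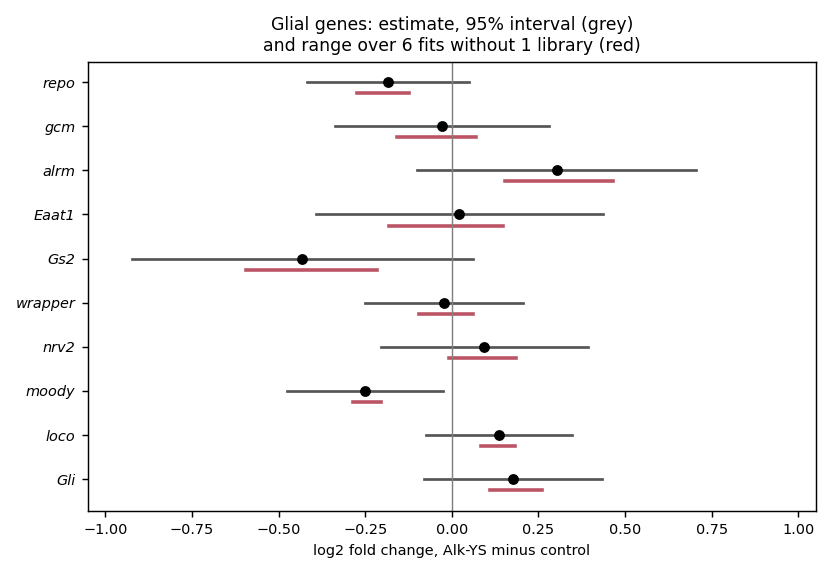
Log2 fold change (Alk-YS minus control, horizontal axis) of the 10 glial genes in limma, as points, with the 95% interval as a grey line and the range over 6 fits that leave out each library in turn as a red line. Of the 10 intervals, that of *moody*, from -0.48 to -0.02, does not reach 0.

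The median log2 fold change over the 10 members was 0.00, beside 0.008 over all tested genes. The median absolute log2 fold change was 0.155 for the members, 0.135 for all tested genes and 0.094 for the 5652 tested genes whose mean reached 500 normalized counts. The summed level of the 10 genes was 20016, 20969 and 22997 normalized counts in control and 19178, 23666 and 20882 in Alk-YS. Alk-YS replicate 1 had the lowest and Alk-YS replicate 2 the highest sum, so the 2 extremes came from the same group and the mean of 21242 ± 2266 (SD, n = 3) lay within the spread of the control mean of 21327 ± 1523 (SD, n = 3).

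Per unit of transcript length, the members spread over a range of 8.42-fold in control, from *moody* at 9.68 ± 0.46 FPKM (fragments per kilobase of transcript, scaled to library depth; SD, n = 3) to *Gs2* at 81.5 ± 16.8 (SD, n = 3). In falling order of control FPKM the genes were *Gs2*, *alrm*, *nrv2*, *wrapper*, *Eaat1*, *repo*, *Gli*, *gcm*, *loco* and *moody*. Control libraries overlapped between *Gs2* and *alrm*, *alrm* and *nrv2*, *nrv2* and *wrapper*, and *loco* and *moody*, so these neighbours were not separated by the spread. In Alk-YS the order was the same but for the top pair, where *alrm* at 71.6 ± 15.4 FPKM stood above *Gs2* at 60.9 ± 14.8 (SD, n = 3 each). *repo* at 23.9 ± 2.75 FPKM and *Gli* at 20.9 ± 2.17 overlapped in Alk-YS (SD, n = 3 each) and not in control.

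**Figure D3:**
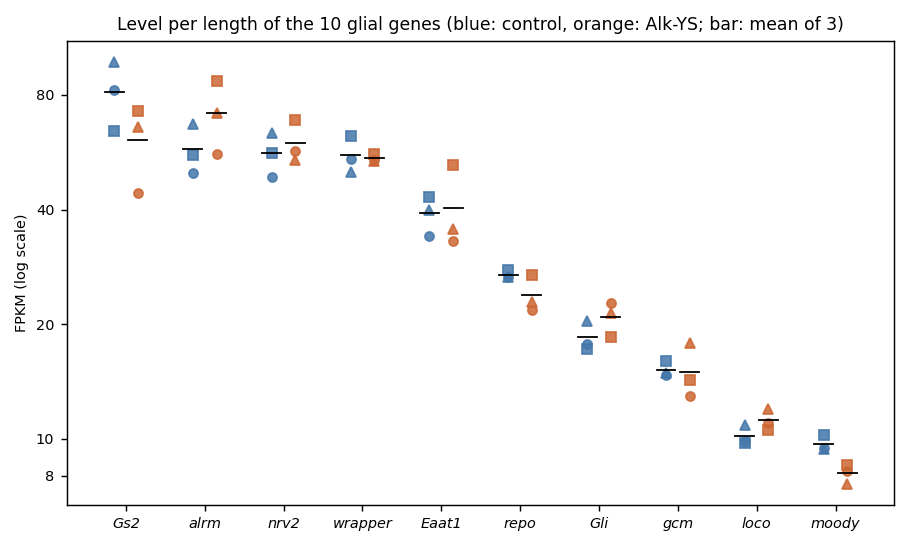
Level of each of the 10 glial genes in FPKM (vertical axis, log scale), by library, in control and Alk-YS, ordered by the control mean. *Gs2* is highest in control and *alrm* in Alk-YS, and *moody* is lowest in both groups.

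Scaled to *repo* in the same library, 1 of the 9 other members separated the groups, against 23.1% of all tested genes. The ratio of *alrm* to *repo* normalized counts was 1.07, 1.15 and 1.45 in control and 1.47, 1.84 and 1.80 in Alk-YS. The lowest Alk-YS library stood just above the highest control library. Ratios here take counts and not length, so only their change between libraries carries meaning.

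Of the 45 ratios between 2 members, 5 (11.1%) did not overlap between the groups, where 22.2% of the ratios between 2 tested genes did not. The ratio of *alrm* to *Gs2* was 0.464, 0.667 and 0.529 in control and 0.975, 0.923 and 0.837 in Alk-YS, with means of 0.553 ± 0.104 and 0.912 ± 0.070 (SD, n = 3 each). The ratio of *moody* to *loco* was 0.491, 0.537 and 0.443 in control and 0.386, 0.415 and 0.327 in Alk-YS. The others were *repo* to *alrm*, *wrapper* to *moody* and *nrv2* to *moody*, and these ratios share members with the 2 described. None of these ratios received a test.

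**Figure D4:**
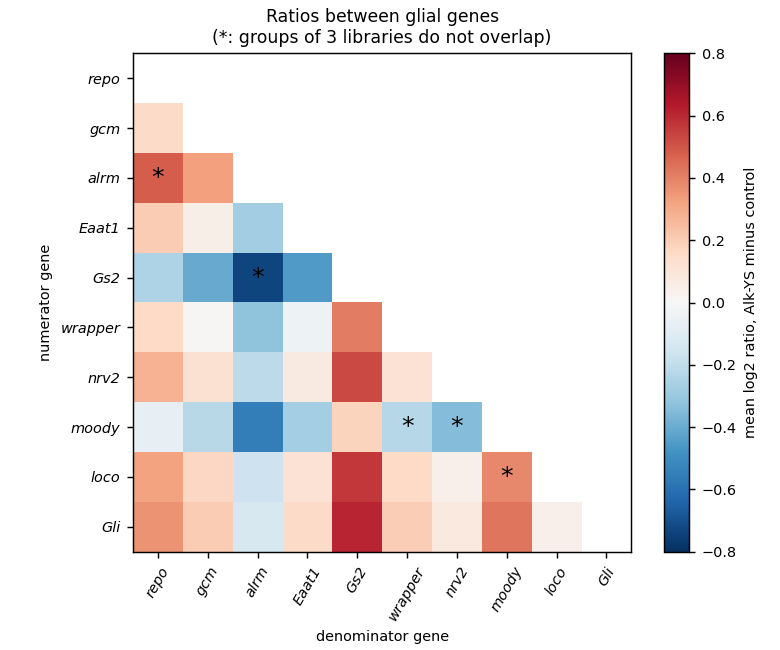
Change of the 45 ratios between 2 glial genes, as the mean log2 ratio of Alk-YS minus that of control (colour scale, red higher and blue lower in Alk-YS), with the numerator gene in rows and the denominator gene in columns. Asterisks mark the 5 ratios whose 3 control and 3 Alk-YS libraries do not overlap, 2 with *alrm* and 3 with *moody*.

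Several members share bases with another gene, and the strand setting of the counting is not given in the sources used here. *repo* overlaps exons of *CG7156* on the opposite strand, which had 482.0, 446.0 and 475.4 normalized counts in control and 376.2, 480.4 and 390.7 in Alk-YS, low in the same Alk-YS replicates 1 and 3 as *repo*. *moody* overlaps *CG4313* on the opposite strand without shared exons. *CG4313* had 381.8, 350.0 and 328.8 normalized counts in control and 259.1, 229.5 and 301.4 in Alk-YS, lower in every Alk-YS library as *moody* was, at -0.43 on the log2 scale and a limma adjusted p of 0.214. *Gs2* and *moody* lie on the X chromosome, over whose 1605 tested genes the median was 0.006 on the log2 fold change scale, and roX1, a non-coding RNA made in males, ranged from 9719 to 25996 normalized counts in control and from 13239 to 25675 in Alk-YS. The part of these neighbours and of the sex makeup of the pools in the values of *repo*, *Gs2* and *moody* was not tested. *gcm* overlaps *CG31709*, which reached at most 1.1 normalized counts. *alrm* lies inside *Fur1* without shared exons, and *loco* overlaps 2 non-coding RNA genes.

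Beyond the 10 members, 43 further genes with a role in glia were listed, of which 42 were in the table and tested. They are called further glial genes here, and the part of other cell types in their values was not tested. limma called 2 of them (4.76%, beside 2.97% of all tested genes), *apt* as higher and *Mdr65* as lower in Alk-YS. The 42 had 21 positive and 21 negative log2 fold changes with a median of 0.01. DESeq2 called 5, adding *NimB4*, *wun2* and *Galphai*, where it called 6.36% of all its genes, and edgeR called 1, *Mdr65*, where it called 2.70%.

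*Mdr65*, the ABC transporter that pumps drugs out of the brain at the blood-brain barrier (3L:6240500-6245746, minus strand), fell in Alk-YS. Control libraries held 2151.3, 2601.2 and 2489.3 normalized counts and Alk-YS libraries 1420.9, 1693.3 and 1305.0, with no overlap. limma estimated for *Mdr65* a log2 fold change of -0.72 with a standard error of 0.12, a fold of 0.609, and a limma adjusted p of 0.023. The call was kept in 2 of the 6 fits that leave out a library and lost without control replicate 1 or 2 or Alk-YS replicate 1 or 3, with limma adjusted p-values from 0.023 to 0.104 over the 6.

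*apt*, a transcription factor listed here for glial fate that is also known from the trachea, heart and ovary (2R:23564891-23599526, plus strand), rose in Alk-YS. Control libraries held 1405.2, 1454.1 and 1736.3 normalized counts and Alk-YS libraries 2092.1, 2773.8 and 2341.1, with no overlap. For *apt* the log2 fold change was 0.65, the standard error 0.13 and the limma adjusted p 0.045. That call was lost in edgeR at an adjusted p of 0.059, at a minimum mean of 50, without the mean-variance trend and on FPKM, and kept in the other 7 of 11 settings. Among the 6 fits that leave out a library it was kept without control replicate 3 alone, with limma adjusted p-values from 0.026 to 0.166 over the 6.

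*Galphai*, a G protein alpha subunit listed here because it acts downstream of *moody* (3L:6972750-6980044), had 3620.3, 4015.4 and 3842.7 normalized counts in control and 4768.8, 4563.2 and 4987.4 in Alk-YS. The groups did not overlap, and the log2 fold change was 0.32, while the adjusted p was 0.091 in limma and 0.010 in DESeq2. The part of cells other than glia in the value of *Galphai* was not tested. *wun2*, a lipid phosphate phosphatase gene, differed by 0.43 on the log2 scale, and its adjusted p was 0.102 in limma and 0.038 in DESeq2.

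*NimB4*, which encodes a secreted Nimrod-family protein of phagocytic glia and hemocytes, had 511.7, 683.1 and 987.2 normalized counts in control and 129.1, 259.4 and 308.8 in Alk-YS. The groups did not overlap. *NimB4* differed by -1.68 on the log2 scale, where limma gave an adjusted p of 0.0502 and DESeq2 3.0e-05, and 6 of 11 other settings called it. None of the 6 fits that leave out a library called *NimB4*, with limma adjusted p-values from 0.067 to 0.171. Among 5 hemocyte markers limma called 1, *NimC1*, as lower in Alk-YS, beside 2.97% of all tested genes. The hemocyte markers were mixed, with 4 negative log2 fold changes and 1 positive one of 0.85. Of these 5 markers, 1 did not overlap between the groups, beside 19.5% of all tested genes. Their summed level was 5910 to 10330.2 normalized counts in control and 4866 to 7172 in Alk-YS. Of 10 other tested genes within 20 kb of *NimB4*, limma called 3, *NimC1* among them, beside 2.97% of all tested genes. The part of hemocyte RNA in the value of *NimB4* was not tested.

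**Figure D5:**
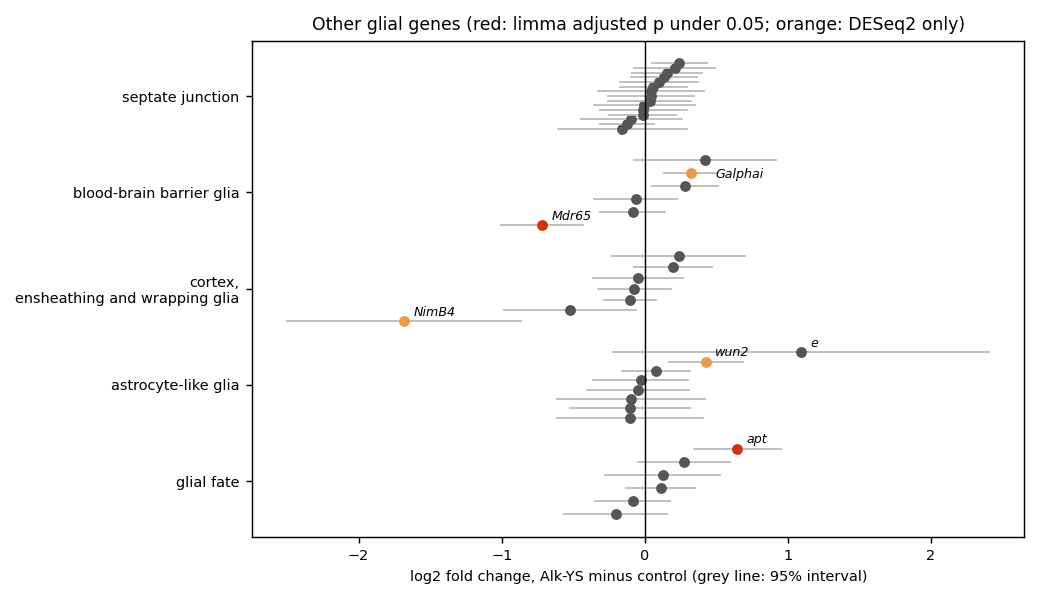
Log2 fold change (Alk-YS minus control, horizontal axis) of the 42 further glial genes, grouped by list in rows, with the 95% interval as a grey line. Red points are the 2 genes called by limma, *apt* at 0.65 and *Mdr65* at -0.72, and orange points the 3 called by DESeq2 only.

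By list, limma called 1 of 6 glial fate genes (*apt*), 0 of 8 astrocyte-like genes and 0 of 7 genes of cortex, ensheathing and wrapping glia. It called 1 of 6 blood-brain barrier genes (*Mdr65*) and 0 of 15 septate junction genes, beside 2.97% of all tested genes. Counts at an unadjusted p under 0.05 were 1, 1, 2, 3 and 1 in that order, 8 of 42 together, beside 13.8% of all tested genes. DESeq2 called 1, 1, 1, 2 and 0, beside 6.36% of all genes. The genes with the highest mean FPKM were *Obp44a* at 5311 in the astrocyte-like list, *Lac* (lachesin, a junction adhesion protein) at 163, *Galphai* at 100.1 and *Lsd-2* (a lipid droplet protein) at 42.4. The log2 fold changes of *Obp44a*, *Lac* and *Lsd-2* were -0.05, -0.12 and -0.11, none past the threshold.

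Markers of other cell types differed between the groups in part. limma called 0 of 8 neuronal genes (summed level 38971 to 52892 normalized counts in control, 38953 to 42926 in Alk-YS) and 0 of 5 neuroblast genes (5023 to 7391 in control, 7386 to 9580.1 in Alk-YS). Of the 8 neuronal genes, 6 had negative log2 fold changes, with a median of -0.25 over the 8. At an unadjusted p under 0.05 limma counted 2 of the 8, beside 13.8% of all tested genes. Without overlap, 3 of the 8 lay lower in Alk-YS, where 19.5% of all tested genes did not overlap in either direction. All 5 neuroblast genes had positive log2 fold changes (median 0.49), each at an unadjusted limma p under 0.05, beside 13.8% of all tested genes. Of the 5, 3 did not overlap between the groups, beside 19.5% of all tested genes. DESeq2 called 2 of the 5, *wor* and *insc*, beside 6.36% of its genes, and both are named here after their values were seen. limma called 2 of 5 muscle genes, *Mlc1* and *Mlc2*, as lower in Alk-YS (2305 to 3099 in control, 1272 to 1672 in Alk-YS). All 5 muscle genes had negative log2 fold changes (median -1.40), each at an unadjusted limma p under 0.05. Of these, 4 lay lower in Alk-YS without overlap, and DESeq2 called 4. For fat body limma called 1 of 5 genes, *Fbp2*, as lower (9743 to 94367 in control, 2689 to 25627 in Alk-YS). All 5 fat body genes had negative log2 fold changes (median -3.05), 2 at an unadjusted limma p under 0.05. Without overlap, 1 fat body gene lay lower, and DESeq2 called 1. The shares of all genes given above for these measures apply here too. It called 0 of 4 genes each for trachea, ring gland and imaginal disc. Over all tested genes limma called 2.97%. No listed marker was at 0 in the control libraries. The part of these cell types in the glial values was not tested.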

How the data were processed

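Bulk RNA was measured in 3 control and 3 Alk-YS libraries of larval CNS. Per the submitters' processing notes the authors used HISAT2 2.0.5, featureCounts 1.5.0-p3 and DESeq2 1.20.0, on the BDGP6 assembly. The strand setting and annotation release are not given in the sources used here. The deposited signal values are read counts the authors divided by a size factor per library, called normalized counts here. In all 6 libraries 100% of values were whole multiples of the smallest (tolerance 0.01), which gave the recovered reads. For control replicate 2 this rests on the multiples and on the FPKM values, since its step is close to 1. The deposited FPKM values were also made by the authors. The deposited table also held the authors' own comparison, a log2 ratio with its p-value and padj, and these columns were not used. The table's column of gene lengths, another deposited unit, served to check the FPKM values.

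Genes with a mean of at least 10 were tested on log2(normalized count + 1) in limma 3.58.1 (R 4.3.3; linear model and moderated two-sided test, trend of variance on mean, all 6 libraries, no covariate), with Benjamini-Hochberg adjustment over 9668 genes and a threshold of 0.05. Fold changes on this scale understate those of low genes. Single genes also had an exact two-sided permutation test, with a smallest p of 0.1. P-values measure the spread among biological replicates as labelled. Replicates differed beyond sampling noise (chi-square per gene 14.1 to 110). The steps were tested on simulated data.

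The members and lists were chosen with earlier results of these data known. Named genes were the 10 members, other glial genes with an adjusted p under 0.05 in limma or DESeq2, the gene of highest mean FPKM in each glial list, and called markers of other cell types. Of 93 list entries 92 were found. Overlaps and positions came from the supplied BDGP6 annotation, in which 98.2% of gene IDs were found. Alternatives were a replicate block, leaving out each library, FPKM, no trend, a minimum mean of 50 or none, a pseudocount of 0.1 or 5, scaling of the reads by TMM or by upper quartile, and edgeR 4.0.16 or DESeq2 1.42.0 on the recovered reads.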

Additional observations from a re-analysis of the deposited data

How the results depend on the processing

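None of the 10 members was called under any of the 17 alternatives, and the lowest adjusted p among them was 0.217, for *moody*. Leaving out each library in turn moved the median log2 fold change of the members between -0.042 and 0.089, and *alrm*, *loco* and *Gli* stayed positive and *repo*, *Gs2* and *moody* negative. The other 4 changed sign around 0. The omissions gave *Eaat1* -0.18 to 0.15, with -0.071 when control replicate 1 was dropped and its lowest value for Alk-YS replicate 2. They gave *nrv2* -0.0072 to 0.19, negative for the same omissions (-0.0050 for control replicate 1). *gcm* ran from -0.16 to 0.070, positive when control replicate 2 (0.0090), Alk-YS replicate 1 (0.070) or Alk-YS replicate 2 (0.0035) was dropped. *wrapper* ran from -0.094 to 0.063, positive when control replicate 2 was dropped. The count of further glial genes called, 2, became 1 in edgeR, at a minimum mean of 50 and on FPKM. It became 3 with TMM or upper-quartile scaling, with a pseudocount of 5 or without a minimum mean, and 5 in DESeq2. It was 0 without the mean-variance trend and 0 to 2 when a library was left out. Over the whole table limma called 287 genes, DESeq2 612, and fits lacking 1 library 105 to 336. The cause of the differences between tools was not tested. Whether replicate numbers paired the samples was not settled. Deviations correlated at -0.12, 0.35 and 0.41 for same-numbered libraries and from -0.48 to 0.32 for differently numbered ones. With a replicate block 284 genes, 0 members and 3 further glial genes were called. The groups held 3 libraries each, and the median standard error of the members was 0.12. The 95% interval of each gene gives a range for that gene alone and was not adjusted for the number of genes.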

Other observations

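The gene *e* (ebony, which encodes the enzyme that conjugates beta-alanine to biogenic amines in glia), chosen after its values were seen, had 259.7, 234.0 and 218.5 normalized counts in control and 1466.0, 341.6 and 257.6 in Alk-YS. Alk-YS replicate 1 stood far above the other 5 libraries. Its log2 fold change was 1.09 with a limma adjusted p of 0.481, and between 0.32 and 1.58 when a library was left out. Alk-YS replicate 1 was also the library with the lowest sum of the 10 members (19178, beside 20016 in control replicate 1). A link between that sum and the value of *e* was not tested.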
